A study of Homo sapiens with 36 samples.

Results

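The comparison asked how the transcriptome of a CRISPR activation line changed between day 5 and day 7 after transduction. The cells were Jurkat, a human T-cell leukaemia line, in its stable form that carries dCas9-VP64 and is mCherry positive. dCas9-VP64 joins a Cas9 that can no longer cut DNA to the VP64 activation domain. A pXPR-based lentiviral vector gave the cells 1 of 2 guides, sgRELA, directed at the RELA gene, or sgControl, which the labels call non-targeting. All groups had puromycin selection for 3 days after transduction, and all came from 1 cell line. The samples were chosen by their labelled day: all 24 libraries of day 5 and day 7, of 36 in the series. The 2 library replicates of each RNA were added, which left 12 of the 18 RNA samples of the series, 6 on each day and 3 for each guide and day (sgControl day 5, sgRELA day 5, sgControl day 7 and sgRELA day 7). RNA came from the same number of cells for each sample, and each library from 100 pg of it. The biological replicates were separate transductions. Each guide name stands for 1 guide as far as the labels say. Untransduced cells were not analysed here, so days of culture, time since selection and time since transduction move together and cannot be told apart, nor can any batch that goes with the day.

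Cells in culture answer shortage and damage through a few well-studied programmes. Misfolded proteins in the cytosol free the heat shock factor HSF1, which raises chaperones such as HSPA6 and DNAJB1. Misfolded proteins in the endoplasmic reticulum (ER) activate the unfolded protein response (UPR), which raises ER chaperones such as HSPA5, and several kinases raise translation of ATF4, which turns on genes of amino acid supply. Low oxygen stabilises the HIF factors, which raise glycolysis and angiogenic genes, while MYC and the E2F factors raise the genes of ribosome production and DNA replication in dividing cells.

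The libraries were made by RamDA-seq, which copies total RNA with random displacement priming, and each held 10111658 to 16124473 counts. The 12 RNA samples held 21943451 to 29503934 counts. Between 25398 and 28127 genes had a count in a library, and genes of the mitochondrial genome took 6.38% to 10.9% of the counts on day 5 and 7.33% to 7.95% on day 7. RELA had 28.8 to 38.6 CPM (counts scaled to a common total) in sgControl and 258 to 312 CPM in sgRELA on day 5, and 22.0 to 26.1 and 118 to 133 CPM on day 7, so the guides separated on each day. All 16 markers of the labelled T-cell type had enough counts to test. Of the marker lists of other cell types, 3 of 8 for B cells, 5 of 9 for myeloid cells, 4 of 7 for NK cells, 2 of 10 for erythroid cells and megakaryocytes, 1 of 6 for epithelium and 4 of 8 for stroma and endothelium had enough counts to test. The genes HBA1, HBA2, HBB, HBG1, HBG2, GP9, EPCAM and COL1A2 had no count. Of these other markers S100A9 rose and CD68, NCAM1 and ITGA2B fell. Summed myeloid markers lay at 27.7 to 38.3 CPM on day 5 and 19.6 to 23.8 CPM on day 7, with CD68 at a mean of 31.6 and 19.8 CPM, and summed NK markers at 15.2 to 27.1 CPM on day 5 and 9.77 to 16.08 CPM on day 7. B-cell markers summed to 18.7 to 61.0 CPM on day 5 and 21.3 to 67.9 CPM on day 7 and stromal and endothelial markers to 77.8 to 101 CPM on day 5 and 83.2 to 93.7 CPM on day 7, with CD79A and PECAM1 as the main contributors. The part of these low levels in the results was not tested. In bulk RNA, fewer cells that express a gene and less RNA per cell cannot be told apart.

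Between day 5 and day 7 many genes changed by a little, and after scaling about as many rose as fell. Of 25833 genes tested with guide as a term in the model, 6437 (24.9%) passed an adjusted p of 0.05 in edgeR's quasi-likelihood test (called genes), 3239 (12.5%) higher and 3198 (12.4%) lower on day 7. Most changes were modest: the median of the called genes was 0.53 log2 units for those higher and -0.51 for those lower. Over 1 log2 unit, 518 genes were higher and 589 lower, and over 3 log2 units 39 were higher and 87 lower. The genes called higher took 26.8% to 27.9% of the scaled counts in the day 5 samples and 37.0% to 37.3% on day 7. For the genes called lower the share went from 32.2% to 33.7% down to 25.1% to 25.4%. These shares describe the genes the test selected and support nothing further. The 6 samples of one day did not overlap with the 6 of the other in 3515 of the tested genes (13.6%).

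**Figure D1:**
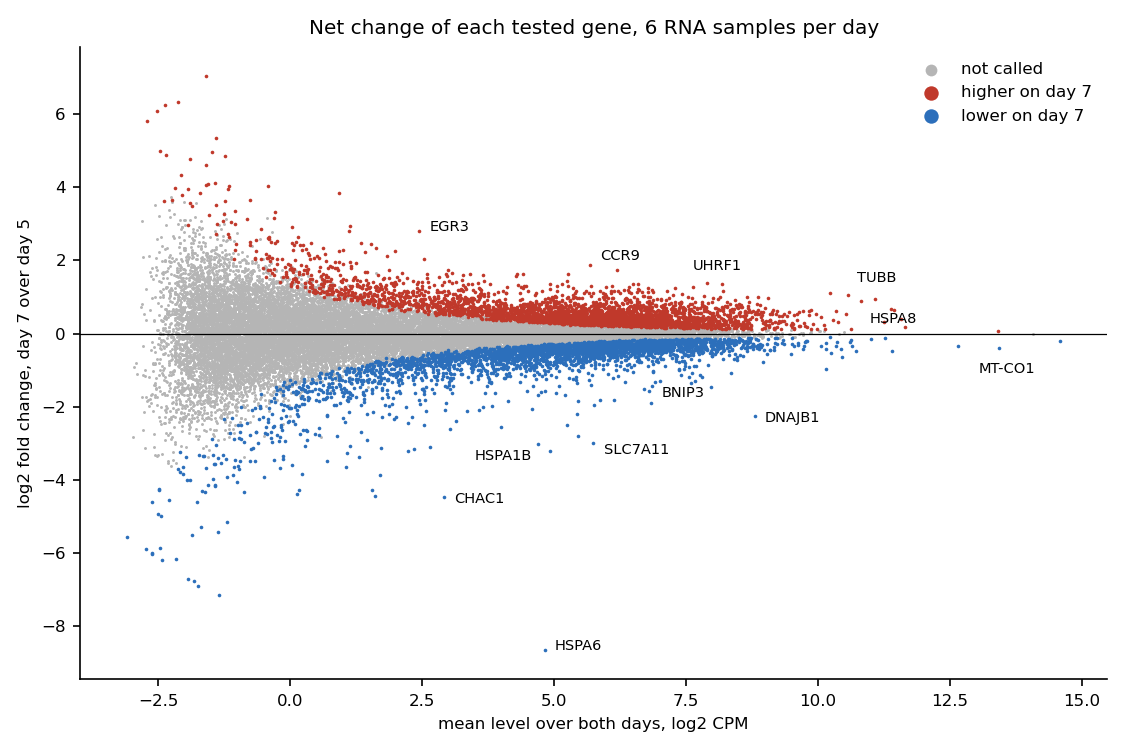
Log2 fold change of each tested gene (day 7 over day 5, both guides; vertical axis) against its mean level in log2 CPM (horizontal axis); red and blue points are the 3239 genes called higher and the 3198 called lower on day 7, grey points were not called. HSPA6 lies lowest of all tested genes at -8.66, and the called genes spread to both sides of 0.

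Genes at higher levels were called more often. Of 13983 protein-coding genes 37.0% were called, of 4803 long non-coding genes 13.5%, of 2560 pseudogenes 6.37% and of 285 small or structural RNAs 1.75%. Among the protein-coding genes, the called share was 8.44% in the fifth with the lowest mean CPM and 62.1% in the fifth with the highest. It was 26.4% in the fifth with the shortest exonic sequence and 45.5% in the fifth with the longest. In the fifth with the highest mean CPM 33.5% were higher and 28.6% lower. The counts of the gene lists are therefore read beside these shares as well as beside 24.9%. Respiratory chain (38.2% called), p53 target (40.7%), BCL2 family (43.8%), immediate early (53.3%), T-cell receptor (57.5%) and T-lineage lists (59.5%) lay between 37.0% and 62.1%. So did NF-kB targets and antioxidant, ER, histone, lysosome, lipid and mitochondrial RNA processing genes. Interferon-stimulated genes lay lower, at 29.3%. The number called does not set these lists apart.

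**Figure D2:**
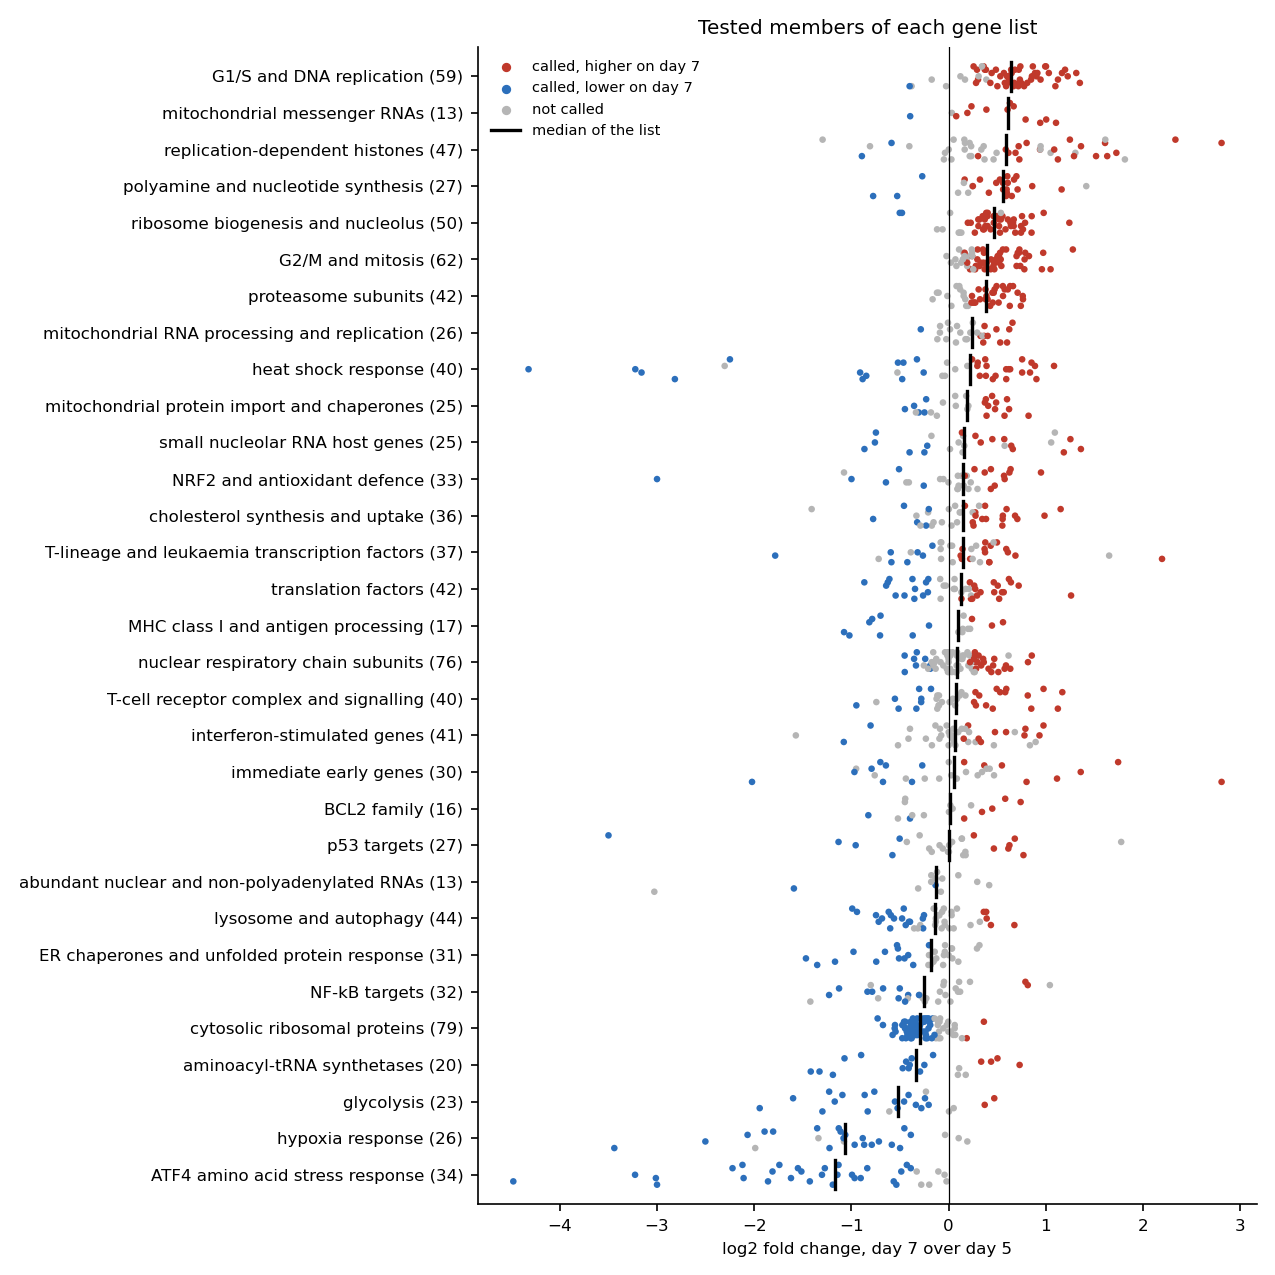
Log2 fold changes (day 7 over day 5) of the tested members of each gene list with 10 or more of them, 1 point per gene, with the number tested in brackets; red and blue points were called higher and lower, grey points were not called, and black bars are medians. Lists of cell division and ribosome production lie to the right of 0, and those of the ATF4 response, hypoxia, glycolysis and cytosolic ribosomal proteins to the left.

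Genes of cell division were higher on day 7. Of 59 genes of the G1/S transition and DNA replication, 49 rose and 1, CDT1, fell, with a median log2 fold change of 0.64 against -0.01 over all tested genes. UHRF1, which keeps DNA methylation after replication, had 140.3, 162 and 186 CPM on day 5 (lowest, median and highest of 6 samples, as in the values that follow) and 385, 417 and 436 CPM on day 7. RRM2, the small subunit of ribonucleotide reductase, had 158, 185 and 193 CPM and then 393, 406 and 423 CPM. For MCM4, a subunit of the replicative helicase, the values were 163, 191 and 203 CPM and 356, 381 and 395 CPM. In each of these genes every day 7 sample lay above every day 5 sample. UHRF1 rose by 1.35 ± 0.06 log2 units (SE; edgeR adjusted p 2.95e-15), RRM2 by 1.17 ± 0.05 and MCM4 by 1.00 ± 0.05. The sliding clamp PCNA rose from 48.4 ± 4.27 to 104 ± 4.08 CPM (SD, n = 6), and the flap nuclease FEN1 from 39.4 ± 5.25 to 97.7 ± 5.81 CPM. CDT1, the licensing factor that loads the helicase, fell from 68.0 ± 8.45 to 51.4 ± 3.64 CPM (log2 fold change -0.40 ± 0.08). The E2F site TTTGGCGC, searched on both strands of the 250 bases before the RefSeq gene start, was found in 0.681% of 27305 genes in the promoter table. Among the 12851 tested genes in that table the share was 0.973%. The site was in 7 of the 48 replication genes there, CDC25A, DTL, E2F1, E2F2, MCM6, POLA1 and POLE. These all rose, but so did 41 of the 48.

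Mitotic genes rose too, with a smaller median. Among 62 genes of G2/M and mitosis 46 rose and none fell, with a median of 0.39. The checkpoint kinase gene BUB1 had 151, 157 and 169 CPM on day 5 and 237, 264 and 273 CPM on day 7, a log2 fold change of 0.71 ± 0.05. GTSE1, a microtubule-associated protein of G2, rose by 0.96 ± 0.08 and TACC3, a spindle protein, by 0.78 ± 0.06. The proliferation marker MKI67 rose from 575 ± 37.6 to 796 ± 36.2 CPM. The tubulin genes TUBB and TUBA1B were among the 8 higher genes with the smallest p. TUBB had 927, 971 and 1103 CPM and then 2022, 2061 and 2096 CPM, 2.09-fold higher without overlap (edgeR adjusted p 6.08e-17). TUBA1B rose by 1.37 ± 0.06 log2 units, with the limit that tubulin copies share sequence.

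Replication-dependent histone genes, whose messages end in a stem-loop in place of a poly(A) tail, are seen by a total RNA method. Of 47 tested of 57 listed, 19 rose and 2 fell, with a median of 0.59. The linker histone gene H1-5 had 48.3, 54.6 and 58.4 CPM and 134, 137 and 143 CPM on the later day, a log2 fold change of 1.36 ± 0.07. H2BC18 rose by 1.63 ± 0.16 and H2BC10 by 1.72 ± 0.20, and the members that fell were H4C16 and H2AC15. H2AC15 lost its call in 12 of 22 alternative fits and H4C16 in 10, and near-identical histone copies make single members uncertain.

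Genes of nucleotide and polyamine synthesis mostly rose. Of 27 tested genes 19 rose and 3 fell (median 0.56). CAD, the first enzymes of pyrimidine synthesis in 1 protein, rose from 313 ± 29.98 to 508 ± 19.7 CPM. PFAS, of purine synthesis, rose by 0.86 ± 0.06 log2 units and SRM, spermidine synthase, by 1.16 ± 0.09. The members that fell were SAT1 and OAZ1, which lower polyamine levels, and IMPDH2, of guanine nucleotide synthesis (-0.78 ± 0.23, -0.53 ± 0.09 and -0.27 ± 0.05).

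Most genes that build ribosomes rose, while most genes of the cytosolic ribosomal proteins fell. Of 50 genes of ribosome biogenesis 41 rose and 2 fell, with a median of 0.46. NOP56, a core protein of box C/D small nucleolar particles, had 150.1, 154 and 173 CPM and then 275, 285 and 299.5 CPM. NCL, nucleolin, had 247, 279 and 294 CPM and then 446, 477 and 487 CPM. Neither gene overlapped between days, and their log2 fold changes were 0.85 ± 0.05 and 0.79 ± 0.05. NOLC1 rose by 0.85 ± 0.06, and MYC, the factor known for driving this programme, from 56.8 ± 1.94 to 90.3 ± 6.75 CPM. POLR1D, a subunit shared by RNA polymerases I and III, and NOB1, a nuclease of 18S rRNA maturation, fell by 0.48 and 0.50.

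Of 79 genes of cytosolic ribosomal proteins 58 fell, 2 (RPS23 and FAU) rose and 19 were not called, with a median of -0.29. Their summed level was 25925 to 29414 CPM on day 5 and 22141 to 22579 CPM on day 7, without overlap. RPL13A had 410.1, 449 and 477 CPM and then 248, 268 and 279 CPM, a log2 fold change of -0.73 ± 0.05. RPS2 fell by 0.55 and RPL5 by 0.55, while RPS23 rose by 0.36 ± 0.06. Many processed pseudogenes resemble these genes, so the counts depend on how reads with several matches were treated, which the sources used here do not give.

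Translation factors divided. Among 42 of them 18 rose and 13 fell. The elongation factors EEF1A1 (7215 ± 347 to 5649.9 ± 87.8 CPM), EEF2, EEF1G and EEF1B2 and the subunits EIF3E, EIF3F, EIF3H and EIF3L of initiation factor 3 fell. Those that rose included EIF4A1, EIF4G1 and EIF5A, of which EIF5A had 78.5, 89.6 and 113 CPM and then 209.5, 221 and 235 CPM (log2 fold change 1.26 ± 0.07). Host genes of small nucleolar RNAs also went both ways: 10 of 25 rose, among them SNHG4 (1.25 ± 0.07) and SNHG3 (1.36 ± 0.08), and 6 fell, among them SNHG32 (-0.76 ± 0.06). Reads from the small RNAs in their introns may count to these hosts.

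Proteasome genes rose or were not called. Of 42 subunits and assembly factors 29 rose and none fell (median 0.38). PSMB2 rose from 125 ± 6.75 to 204 ± 14.9 CPM, PSMA5 from 119 ± 7.30 to 188 ± 8.35 CPM and the activator PSME3 from 125 ± 10.5 to 212 ± 10.6 CPM (SD, n = 6).

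Genes on the heat shock list changed in both directions, 20 of 40 higher and 13 lower. The list also holds HSPA8, a chaperone of unstressed cells, and subunits of the TRiC chaperonin, which were among those higher. Its counts therefore do not describe the heat-inducible genes alone. Promoters of members of either direction carried the element that HSF1 trimers bind, so they are shown side by side. The search looked for GAA, TTC and GAA with 2 bases between each on both strands in the 250 bases before the RefSeq gene start (GRCh38.p14). It found a match in 0.557% of 27305 genes in the promoter table, and in 7 of 35 heat shock genes with a promoter there. These were CHORDC1, HSP90AA1 and SERPINH1, which fell, DNAJB6, HSP90AB1 and HSPA8, which rose, and HSPD1, which was not called. HSPA6, which was not on the list and fell, also had a match. A gene was counted if any of its promoters in the table matched. SERPINH1 had 2 promoters there and HSP90AB1 3, and the first with a match is shown. The bases shown for HSPA8, and for CHAC1 below, lie within the gene as GENCODE v29 draws it. Those shown for SERPINH1, and for BNIP3 and P4HA1 below, lie partly within it. Capitals mark the match, on either strand, and each run reads 5′ to 3′ along the gene. HSPA6 lies at chr1:161524290-161524539 (plus strand), SERPINH1 at chr11:75562003-75562252 (plus), HSPA8 at chr11:123062137-123062386 (minus) and HSP90AB1 at chr6:44247693-44247942 (plus).
HSPA6: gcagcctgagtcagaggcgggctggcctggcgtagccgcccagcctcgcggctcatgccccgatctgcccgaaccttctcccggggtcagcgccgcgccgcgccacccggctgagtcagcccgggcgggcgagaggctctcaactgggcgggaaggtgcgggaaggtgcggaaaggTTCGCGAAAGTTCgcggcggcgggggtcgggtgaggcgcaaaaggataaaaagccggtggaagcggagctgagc
SERPINH1: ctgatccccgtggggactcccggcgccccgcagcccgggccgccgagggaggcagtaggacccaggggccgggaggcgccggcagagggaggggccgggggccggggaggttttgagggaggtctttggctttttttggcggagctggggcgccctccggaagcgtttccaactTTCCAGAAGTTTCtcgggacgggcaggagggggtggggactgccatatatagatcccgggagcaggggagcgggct
HSPA8: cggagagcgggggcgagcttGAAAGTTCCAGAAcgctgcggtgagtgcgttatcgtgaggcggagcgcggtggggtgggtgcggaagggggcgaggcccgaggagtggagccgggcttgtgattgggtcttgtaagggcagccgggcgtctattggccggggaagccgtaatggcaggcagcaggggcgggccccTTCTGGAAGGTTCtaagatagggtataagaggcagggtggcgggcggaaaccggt
HSP90AB1: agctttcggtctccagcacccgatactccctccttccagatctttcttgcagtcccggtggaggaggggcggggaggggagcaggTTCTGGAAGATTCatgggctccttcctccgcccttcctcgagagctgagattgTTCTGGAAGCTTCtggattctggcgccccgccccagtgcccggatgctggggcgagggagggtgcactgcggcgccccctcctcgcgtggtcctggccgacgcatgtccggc
HSPA6 and SERPINH1 hold 1 match each, starting 74 and 76 bases before the gene start. HSPA8 and HSP90AB1 hold 2 each, at 55 and 230 and at 112 and 165 bases. A match is a description of these letters and shows no binding.

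HSPA6, a heat-inducible HSP70 that is silent in most unstressed cells, had 952 to 1738 counts in the day 5 samples and 0 to 8 on day 7. In CPM the values were 37.8, 53.5 and 78.1 on day 5 and 0, 0.0834 and 0.319 on day 7. The gene lies on chromosome 1, 161524540 to 161526910 (GRCh38, GENCODE v29, protein coding), and reads may also match its pseudogene HSPA7. No sample overlapped, and the log2 fold change was -8.66 ± 0.28 (edgeR adjusted p 5.84e-17), which at so few counts depends on the prior count of the fit. DNAJB1, the HSP40 partner of HSP70, had 566, 764 and 894 CPM and then 147, 152 and 171 CPM, 4.75-fold lower. HSPA1B had 41.9, 55.0 and 64.2 CPM and then 4.50, 5.48 and 7.45 CPM. SERPINH1, a collagen chaperone, had 50.7, 80.3 and 103 CPM and then 8.53, 11.04 and 13.2 CPM. All 3 were without overlap, with log2 fold changes of -2.25 ± 0.08, -3.22 ± 0.15 and -2.81 ± 0.14. HSPA1A and HSPA1B encode the same protein from near-identical genes, so the split between them is uncertain, and HSPA1A fell by 3.16.

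HSPA8 and DNAJA1 rose. HSPA8, the abundant HSP70 of unstressed cells, had 1159, 1274 and 1350.5 CPM and then 2316, 2339.8 and 2395 CPM, 1.87-fold higher. DNAJA1, its HSP40 partner, had 97.6, 112 and 117 CPM and then 228, 234 and 242 CPM. Both were free of overlap. CCT2, a subunit of the TRiC chaperonin that folds actin and tubulin, rose by 0.76 ± 0.04 log2 units, and TCP1, CCT3, CCT4, CCT5, CCT6A and CCT7 rose with it, while CCT8 was not called (-0.06). The cytosolic HSP90 genes parted: HSP90AA1 fell from 1971 ± 186 to 1415 ± 30.1 CPM and HSP90AB1 rose from 2159 ± 138 to 2695 ± 42.0 CPM. Over the list 7 genes were not called, and the median was 0.22.

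ER chaperones fell or were not called. Of 31 tested genes of ER folding and the UPR 13 fell, with a median of -0.19. HSPA5 (BiP), the main ER chaperone, had 237, 356 and 467 CPM and then 115, 135 and 153 CPM, the day 5 samples being spread but all above day 7. HERPUD1, of ER-associated degradation, had 53.8, 61.1 and 76.0 CPM and then 19.6, 24.7 and 28.4 CPM. EDEM1, which marks misfolded glycoproteins for removal, had 1444, 1512 and 1597 CPM and then 722, 766 and 826 CPM. The log2 fold changes were -1.47 ± 0.11, -1.35 ± 0.10 and -0.98 ± 0.04. CALR, CANX and HYOU1 were not called, at 0.10, -0.13 and -0.05.

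Genes of the ATF4 response had the lowest median of the lists with 10 or more tested members. Of 34 ATF4 response genes tested 28 fell, none rose and 6 were not called, with a median of -1.17. SLC7A11, the cystine transporter, had 77.7, 99.8 and 107 CPM and then 7.83, 11.3 and 16.3 CPM. CHAC1, which breaks down glutathione, had 10.8, 14.2 and 18.0 CPM and then 0.0814, 0.720 and 1.178 CPM. DDIT3, the stress factor CHOP, had 5.53, 8.21 and 11.3 CPM and then 0.210, 0.805 and 2.11 CPM. None of the 3 overlapped between days, but CHAC1 and DDIT3 were picked among genes without overlap. SLC7A11 was 7.99-fold lower, with log2 fold changes of -4.48 ± 0.33 for CHAC1 and -3.22 ± 0.34 for DDIT3. The first enzymes of serine synthesis fell with them, PHGDH from 168 ± 11.1 to 62.4 ± 4.92 CPM and PSAT1 from 291 ± 18.5 to 118 ± 8.73 CPM. ATF4 itself fell from 299 ± 12.99 to 135 ± 9.33 CPM and asparagine synthetase, ASNS, from 68.5 ± 8.15 to 18.9 ± 4.86 CPM.

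Of 20 cytosolic aminoacyl-tRNA synthetases, which load amino acids on tRNAs, 13 fell and 4 rose. SARS1 had 154, 171 and 188 CPM and then 63.1, 67.9 and 74.6 CPM, without overlap (log2 fold change -1.33 ± 0.06). AARS1 fell by 1.19 and YARS1 by 1.07. The members that rose were FARSA, FARSB, VARS1 and WARS1 (0.33, 0.50, 0.73 and 0.44), of which FARSA and FARSB form the phenylalanine enzyme.

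The elements known for the ER and amino acid responses are shown in 1 promoter each. The ER stress element (ERSE) is CCAAT and CCACG with 9 bases between, and it was found in 0.0916% of the 27305 genes and in 7 of 29 ER genes with a promoter in the table. These were HSPA5, HSP90B1, PDIA6 and XBP1, which fell, and CALR, CANX and CRELD2, which were not called. The C/EBP-ATF response element (CARE), searched as TGATGNAA, was in 3.89% of all genes and in 6 of 28 ATF4 response genes, namely ASNS, ATF3, CHAC1, JDP2 and SLC1A5, which fell, and CEBPG, which was not called. HSPA5 lies at chr9:125241344-125241593 (GRCh38.p14, minus strand) and CHAC1 at chr15:40953221-40953470 (plus), with the element in capitals, 66 and 209 bases before the start.
HSPA5: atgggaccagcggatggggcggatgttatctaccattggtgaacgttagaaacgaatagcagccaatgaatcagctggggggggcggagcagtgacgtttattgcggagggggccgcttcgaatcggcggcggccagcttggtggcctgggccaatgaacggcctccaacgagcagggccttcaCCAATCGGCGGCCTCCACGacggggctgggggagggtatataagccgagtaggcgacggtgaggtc
CHAC1: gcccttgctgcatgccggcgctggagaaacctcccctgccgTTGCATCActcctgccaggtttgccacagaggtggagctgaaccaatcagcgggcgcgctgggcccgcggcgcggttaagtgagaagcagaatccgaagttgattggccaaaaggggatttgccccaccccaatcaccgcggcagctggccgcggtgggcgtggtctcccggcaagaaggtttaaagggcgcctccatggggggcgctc

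Hypoxia response genes had the next lowest median. Of 26 tested 20 fell, none rose and 6 were not called (median -1.07). BNIP3, which marks mitochondria for autophagy, had 159, 179 and 203 CPM and then 46.0, 48.3 and 51.1 CPM. P4HA1, a collagen prolyl hydroxylase subunit, had 102, 109.8 and 119 CPM and then 28.9, 30.7 and 34.7 CPM. VEGFA, the angiogenic growth factor, had 59.1, 64.2 and 73.0 CPM and then 8.23, 11.4 and 14.4 CPM. No sample of one day reached the other in these genes, and BNIP3 was 3.71-fold lower, P4HA1 3.49-fold and VEGFA 5.66-fold. PDK1, which keeps pyruvate out of the mitochondria, fell from 276 ± 29.8 to 108 ± 7.32 CPM, and HIF1A itself from 157 ± 8.91 to 115 ± 9.85 CPM. EGLN3, EPAS1 and ERO1A were not called.

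Most glycolysis genes fell. Of 23 genes 17 fell, 2 rose and 4 were not called (median -0.53). ALDOC, an aldolase, had 84.4, 85.1 and 88.2 CPM and then 19.4, 22.1 and 24.8 CPM, with no overlap and a log2 fold change of -1.94 ± 0.08. HK2, the inducible hexokinase, fell by 1.30 and PFKFB3, whose product activates phosphofructokinase, by 1.17. LDHA fell from 1426 ± 87.8 to 991 ± 35.3 CPM while LDHB, the other lactate dehydrogenase subunit, rose from 678 ± 46.7 to 875 ± 29.6 CPM. SLC16A1, the lactate carrier MCT1, rose by 0.47 ± 0.06, and SLC16A3, the carrier MCT4, fell by 1.09.

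ACGTG, the core of the HIF binding site, is a short word that 21.7% of the 27305 genes hold on some strand of these 250 bases. The share was 27.2% among the 12851 tested genes in the promoter table. It was found in 16 of 22 hypoxia genes and 13 of 21 glycolysis genes with a promoter in the table. It can overlap other elements, since CACGTG reads the same on both strands. The promoters of the 2 hypoxia genes with the smallest p are shown with it in capitals. BNIP3 lies at chr10:131981924-131982173 and P4HA1 at chr10:73096867-73097116, both on the minus strand of GRCh38.p14. In BNIP3 the capitals hold 2 overlapping matches, 134 and 133 bases before the start, and in P4HA1 1 match at 86 bases.
BNIP3: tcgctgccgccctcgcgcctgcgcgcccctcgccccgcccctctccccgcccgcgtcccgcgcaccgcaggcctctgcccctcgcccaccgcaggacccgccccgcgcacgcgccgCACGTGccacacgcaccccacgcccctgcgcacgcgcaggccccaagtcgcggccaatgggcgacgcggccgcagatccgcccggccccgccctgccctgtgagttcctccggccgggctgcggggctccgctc
P4HA1: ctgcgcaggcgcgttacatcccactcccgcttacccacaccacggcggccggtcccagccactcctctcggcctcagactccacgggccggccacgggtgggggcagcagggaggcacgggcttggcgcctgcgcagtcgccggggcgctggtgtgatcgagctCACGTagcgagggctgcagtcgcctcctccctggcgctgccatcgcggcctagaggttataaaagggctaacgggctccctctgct

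Messages of the mitochondrial genome encode subunits of the respiratory chain and ATP synthase and are cut from long shared transcripts, and most of them rose. Of 13 mitochondrially encoded messages 11 rose, MT-CO1 fell and MT-CO2 was not called (median 0.61). MT-ND2 had 650.3, 790.0 and 817 CPM and then 1556, 1662 and 1701 CPM, MT-ATP6 1389, 1449.8 and 1586 CPM and then 2634, 2878 and 3041 CPM. MT-CO1, the most abundant of them in CPM, had 12219.7, 12487 and 13288 CPM and then 9428, 9438 and 9843 CPM. Days did not overlap in these 3 genes. Their log2 fold changes were 1.10 ± 0.04, 0.94 ± 0.04 and -0.40 ± 0.02, and MT-ND2 and MT-CO1 were the highest and the lowest of the 13. The large ribosomal RNA, MT-RNR2, fell by 0.21 (edgeR adjusted p 0.0102; 0.114 with DESeq2), with 1 day 5 sample at 36077 CPM against a day 5 median of 24763. Nuclear copies of mitochondrial sequence can take or add reads.

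**Figure D3:**
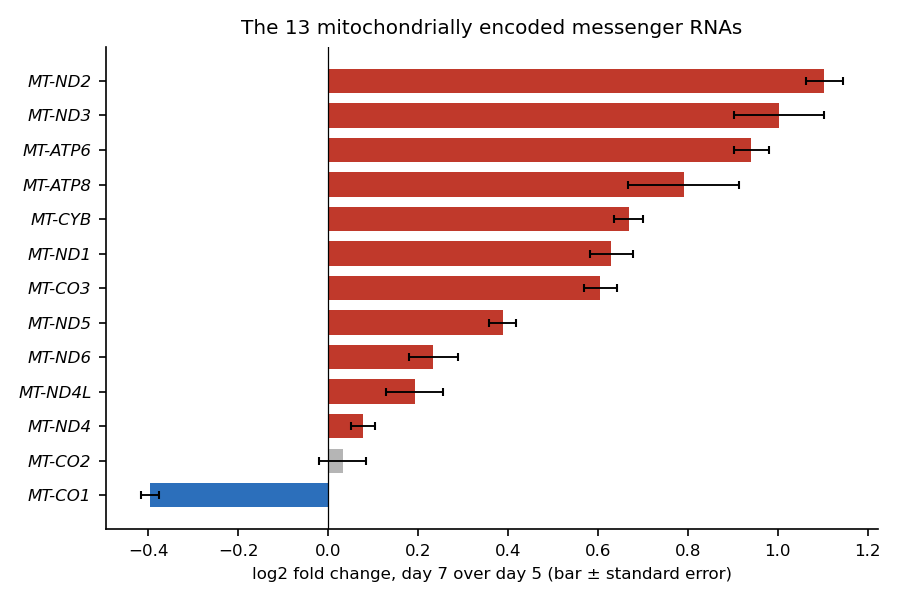
Log2 fold change (day 7 over day 5) of the 13 mitochondrially encoded messenger RNAs as bars with the standard error of the edgeR fit; red bars were called higher, the blue bar lower, and the grey bar was not called. Bars run from -0.40 for MT-CO1 to 1.10 for MT-ND2.

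Nuclear genes of the same organelle had smaller medians. Of 76 respiratory chain and ATP synthase subunits 21 rose, 8 fell and 47 were not called (median 0.09). The 3 genes of ATP synthase subunit c were not alike: ATP5MC3 (0.44 ± 0.05) and ATP5MC1 (0.85 ± 0.17) rose and ATP5MC2 (-0.33 ± 0.07) fell. Of 26 genes of mitochondrial transcription, RNA processing and replication 10 rose and 1 fell. TFAM, which packs mitochondrial DNA, rose from 73.5 ± 8.97 to 106 ± 9.53 CPM, the helicase gene TWNK from 37.0 ± 4.32 to 57.0 ± 6.06 CPM and the coactivator gene PPRC1 from 159.6 ± 20.8 to 242 ± 11.6 CPM. The 1 that fell, SUPV3L1, lost its call in 12 of 22 alternative fits. Among 25 genes of import and folding 11 rose, TOMM40 by 0.82 ± 0.11 and TIMM23 by 0.57 ± 0.07, and 5 fell, among them TOMM20 (-0.23) and the protease gene YME1L1 (-0.36).

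Genes of lipid synthesis rose more often than they fell. Of 36 genes of sterol and fatty acid synthesis and uptake 16 rose and 5 fell (median 0.14). Fatty acid synthase, FASN, had 125, 129 and 138 CPM and then 236, 266 and 271 CPM. The days did not overlap (log2 fold change 0.99 ± 0.05), and ACACA, of the first step of fatty acid synthesis, rose by 0.71 ± 0.06. SREBF2, the factor that drives the sterol genes, fell by 0.20 with overlap between days. MYLIP, which degrades the LDL receptor, and STARD4, a sterol carrier, fell by 0.78 and 0.46.

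Antioxidant genes divided. Of 33 tested 11 rose and 5 fell. Thioredoxin reductase, TXNRD1, rose from 207 ± 13.7 to 307 ± 10.5 CPM, and the peroxiredoxins PRDX1 and PRDX2 rose by 0.95 ± 0.09 and 0.64 ± 0.07. SLC7A11 is also on this list and fell, as did TKT and FTL (-0.64 and -0.51). NFE2L2, which encodes NRF2, fell by 0.26. Of 44 lysosome and autophagy genes 17 fell and 5 rose (median -0.14). NBR1, an autophagy receptor, fell from 135 ± 11.3 to 84.2 ± 8.34 CPM, NPC2, a lysosomal cholesterol carrier, from 25.3 ± 2.72 to 13.2 ± 0.854 CPM and the cathepsin gene CTSB from 116 ± 9.05 to 76.6 ± 9.80 CPM.

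Genes of the T-cell receptor complex changed in both directions. Of 40 genes of the T-cell receptor and its signalling 15 rose and 8 fell (median 0.07). TRAC, the receptor alpha constant gene, had 38.7, 42.6 and 49.2 CPM and then 90.2, 95.5 and 109.6 CPM. CD3G had 261, 303 and 310.4 CPM and then 497, 535 and 564 CPM. Both were free of overlap, with log2 fold changes of 1.17 ± 0.08 and 0.85 ± 0.05. TRBC2, TRBC1 and CD3D also rose (63.5 ± 4.31 to 138 ± 8.43 CPM for TRBC2), whereas CD3E (-0.18) and CD247 (-0.28) fell. LCK rose from 638 ± 46.7 to 922 ± 59.7 CPM and LCP2, the adaptor SLP-76, from 55.1 ± 4.30 to 108 ± 5.46 CPM. CD4 fell from 21.1 ± 4.54 to 10.8 ± 1.19 CPM. The constant genes TRBC1 and TRBC2 are similar, so their split is uncertain.

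Of 37 genes of the T lineage and T-cell leukaemia, most of them transcription factors, 15 rose and 7 fell. TCF7 rose from 361 ± 27.7 to 544 ± 17.5 CPM, BCL11B from 203 ± 14.5 to 326 ± 9.10 CPM and IKZF2 from 1083 ± 52.7 to 1406 ± 31.0 CPM. NOTCH1 and its target HES1 rose by 0.50 ± 0.07 and 2.19 ± 0.57, HES1 from 0.444 ± 0.295 to 2.07 ± 0.869 CPM. MYB fell from 515 ± 31.9 to 413 ± 9.60 CPM, ALDH1A2 by 0.59 and STAT5B by 0.42. CCR9, a chemokine receptor of thymocytes, was among the 6 genes with the largest rise at 5 CPM or more without overlap. It had 15.4, 21.9 and 26.3 CPM and then 76.0, 79.1 and 87.4 CPM, 3.70-fold higher without overlap.

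Immediate early genes went both ways, 8 of 30 higher and 8 lower. EGR3, a zinc finger factor induced by receptor signals, had 0.404, 0.966 and 2.71 CPM and then 6.77, 9.37 and 13.2 CPM. KLF10 had 3.22, 5.05 and 9.63 CPM and then 12.9, 14.7 and 17.3 CPM. JUN, a subunit of AP-1, had 14.4, 19.5 and 26.2 CPM and then 2.56, 4.96 and 6.86 CPM. None overlapped between days, but EGR3 was picked among genes without overlap. The log2 fold changes were 2.81 ± 0.36, 1.36 ± 0.22 and -2.02 ± 0.21. EGR2 rose by 1.74 ± 0.37 with overlap, and lost its call with either set of libraries alone. FOS and JUNB were not called (-0.44 and -0.10).

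NF-kB targets were called about as often as protein-coding genes at large. Of 32 tested of 43 listed 10 fell, 2 rose and 20 were not called (median -0.26), so that 37.5% were called beside 37.0% of all protein-coding genes. The median was -0.06 in sgControl and -0.34 in sgRELA, whose guide is directed at a gene of this family, and the difference between the medians was not tested. TNFAIP3, which encodes the inhibitor A20, had 55.8, 86.7 and 114 CPM and then 38.2, 60.5 and 84.6 CPM, the days overlapping across guides (log2 fold change -0.50 ± 0.08). TRAF1, a receptor adaptor, fell by 1.23, and RELB and NFKB2, subunits of the family, by 0.83 and 0.67. The inhibitor gene NFKBIA was not called (-0.05). Of the 2 that rose, CD69 and IRF1, the factor gene IRF1 rose from 27.4 ± 3.10 to 47.3 ± 3.32 CPM.

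Of 17 genes of MHC class I and antigen processing 8 fell, though the median was 0.10 and 9 members lay above 0. Those that fell included HLA-E, from 156 ± 22.0 to 77.1 ± 8.98 CPM, and B2M, the shared light chain, from 162 ± 13.96 to 99.6 ± 7.98 CPM. HLA-B, HLA-C, HLA-F, TAP1 and PDIA3 were also among those that fell. The 3 members that rose were ERAP2, PSMB8 and PSMB10, of peptide trimming and the immunoproteasome, and 6 were not called. PSMB10 lost its call in 8 of 22 alternative fits and PSMB8 in 5. HLA genes share sequence and vary between cell lines, so their levels are uncertain. Of 41 interferon-stimulated genes 10 rose and 2 fell. EIF2AK2, the double-stranded RNA sensor PKR, rose from 84.8 ± 4.88 to 162 ± 16.7 CPM and OAS3 from 46.5 ± 8.03 to 91.4 ± 7.98 CPM, while BST2 and IRF7 fell (-1.08 and -0.80). ISG15 and IFIT1 were not called.

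BCL2 family and p53 target genes went both ways. Of 16 BCL2 family genes 5 rose and 2 fell (median 0.01, below 0 with scaling by total counts). BCL2L11, the death promoter BIM, rose by 0.74 ± 0.08 and the protector BCL2 by 0.45 ± 0.08, and PMAIP1, the death promoter NOXA, fell by 0.83. Of 27 p53 target genes 6 rose and 5 fell, beside 17.9% higher and 19.1% lower among all protein-coding genes. AEN, a nuclease, rose by 0.77 ± 0.10, and CCNG1 and SESN2 fell by 0.96 and 1.13, of which SESN2 is also an ATF4 target. The list of 13 abundant nuclear and non-polyadenylated RNAs had 2 members lower and none higher. RNU6ATAC fell from 6.05 ± 1.117 to 2.01 ± 1.07 CPM without overlap. NEAT1 had 2601 ± 361 and then 2355 ± 169 CPM with overlap between days, and it passed within sgRELA (-0.23, edgeR adjusted p 0.000197) and not within sgControl (-0.04, adjusted p 0.566). The difference between guides did not pass (adjusted p 1.00, unadjusted 0.00292).

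Other genes with the largest change or the smallest p belonged to no list. VANGL1, of planar cell polarity, had 97.7, 119 and 128 CPM and then 269, 279 and 288 CPM, 2.40-fold higher without overlap. ACTG2, labelled as smooth muscle actin, had 144, 165 and 183 CPM and then 48.1, 56.1 and 61.0 CPM, 2.95-fold lower, though actin genes share sequence. Among low genes, CPA4 rose from 1.38 ± 1.23 to 6.55 ± 3.00 CPM, LINC00954 from 1.02 ± 0.786 to 5.14 ± 2.18 CPM and the pseudogene SDHDP4 from 1.67 ± 0.623 to 5.61 ± 0.696 CPM. CPA4 passed within sgRELA (3.26, edgeR adjusted p 0.000141) and not within sgControl (1.32, adjusted p 0.0872), and the difference between guides did not pass. SDHDP4 ends at 45884113 on chromosome 3, close to CCR9, which starts at 45886504. Whether the 2 rises are independent was not tested. SDK2, an adhesion protein, fell from 5.82 ± 3.51 to 0.286 ± 0.473 CPM, with 44 to 247 counts per sample on day 5 and 0 to 31 on day 7.

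For many genes the level on day 6 did not lie between those of day 5 and day 7. All 18 RNA samples were scaled together and levels taken as log2(CPM + 1). Of 3237 genes called higher, 1341 (41.4%) had a day 6 mean below that of day 5, and 344 had one above that of day 7. Of 3198 genes called lower, 717 (22.4%) had a day 6 mean above that of day 5 and 479 one below that of day 7. Among 21118 genes that were not called, 8757 had a day 6 mean below that of day 5 and 12361 one above it. In all, the day 6 mean lay outside those of days 5 and 7 in 44.8% of 6435 called genes and in 72.3% of 21118 genes that were not called. Over all 27553 genes the share was 65.9%, and genes without any change would also often have it outside. Called genes were selected for day 5 and day 7 means that lie apart, which leaves more room between them. The lower share among called genes therefore follows at least in part from that selection. In 334 of the 3237 genes called higher every day 6 sample lay below every sample of both other days, and in 21 every day 6 sample lay above them. In genes called lower these numbers were 45 and 49 of 3198, and in genes not called 291 and 166 of 21118. No test was made on these counts. Genes called higher with every day 6 sample lowest numbered 147 from library replicate 1 alone and 233 from library replicate 2 alone.

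Over all 27553 genes of this scaling 27.6% had a day 6 mean below both other days and 38.3% above both, and differences of the lists from these shares were not tested. Of the 62 mitotic genes 61 had a day 6 mean below both other days, as did 55 of 59 replication genes, 46 of 50 of ribosome biogenesis and 34 of 40 heat shock genes. Day 6 levels below come from the scaling of all 18 samples and those of days 5 and 7 from the scaling of 12. MCM4 stood at 109 ± 13.2 CPM on day 6 (SD, n = 6), against 189 on day 5 and 378 on day 7. HSP90AA1 had 1971, 403 and 1415 CPM on days 5, 6 and 7, and LDHA had 1426, 551 and 991 CPM. Of the ER genes, 28 of 31 had a day 6 mean above both other days. HSPA5 stood at 558 ± 48.3 CPM on day 6, and CALR, which was not called, at 1128 ± 87.4 CPM on day 6 against 566 on day 5 and 606 on day 7. Of 34 ATF4 response genes 22 stood between the other days on day 6, 9 above both and 3 below both. SLC7A11, among those in between, had 94.9, 50.5 and 11.99 CPM on days 5, 6 and 7, and PHGDH had 168, 106 and 62.4 CPM. Among those above both, TRIB3 had 53.6, 178 and 26.8 CPM on days 5, 6 and 7, and ATF5 had 19.9, 92.6 and 13.9 CPM. Of the 26 hypoxia genes 20 stood between the other days, with BNIP3 at 60.3 ± 20.8 CPM. For cytosolic ribosomal proteins 55 of 79 lay in between.

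**Figure D4:**
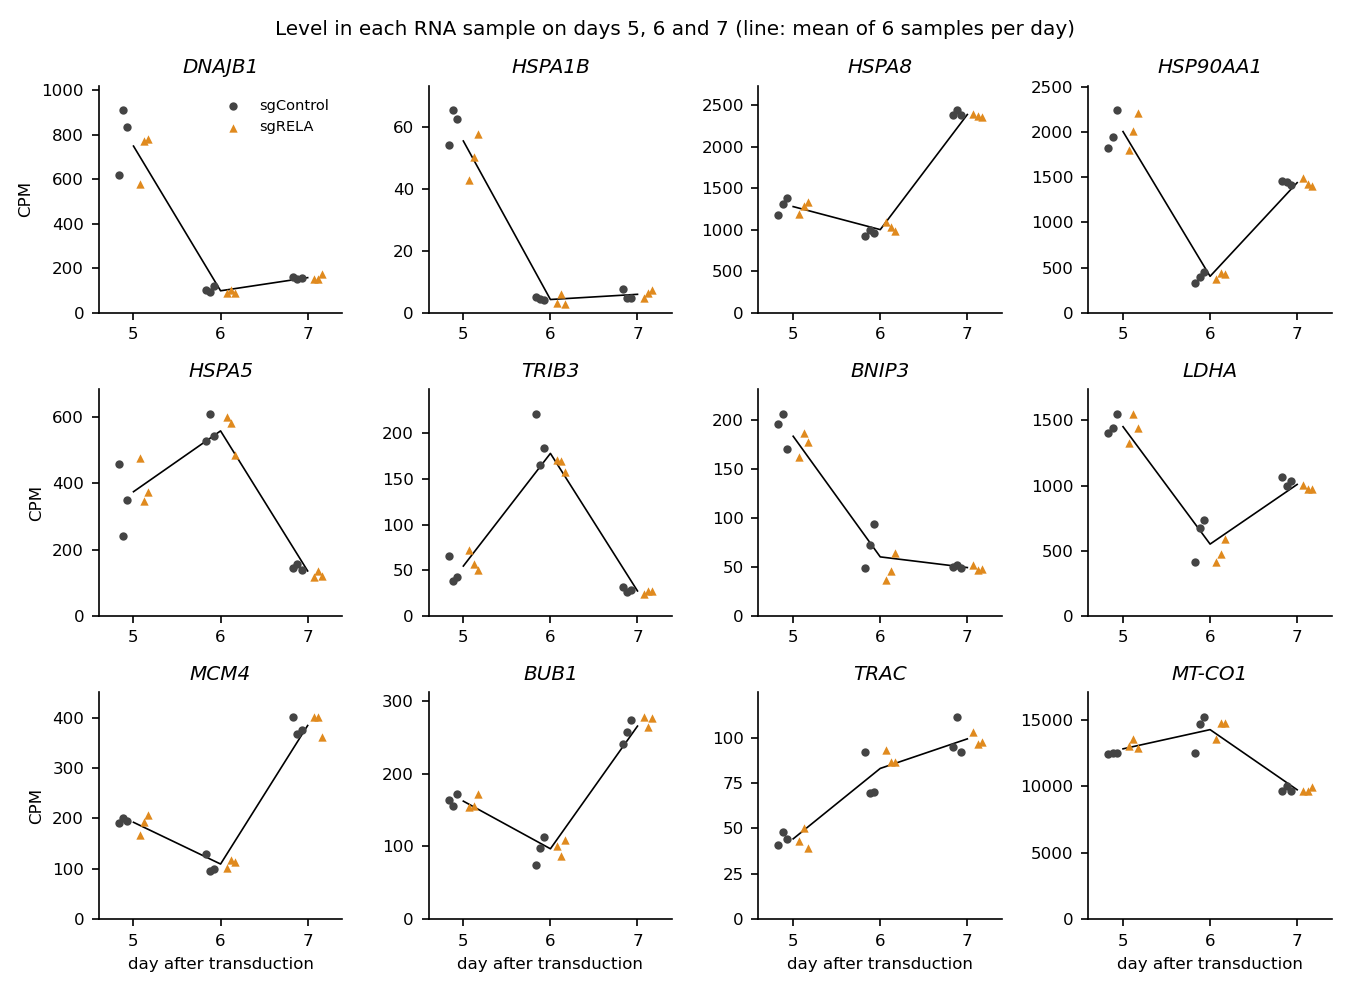
Level in CPM (vertical axis, from 0) of 12 genes in each of the 18 RNA samples by day after transduction, circles for sgControl and triangles for sgRELA, with a line through the mean of 6 samples per day and all 18 samples scaled together; the genes were chosen after their values were seen. The means of HSP90AA1, LDHA, MCM4 and BUB1 were lowest on day 6, and those of HSPA5, TRIB3 and MT-CO1 highest.

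No gene's net change differed between the guides past the threshold, and the genes called within each guide overlapped. Within sgControl, 3 samples against 3, 3932 genes (15.2%) were called, 2020 higher (7.82%) and 1912 lower (7.4%). Within sgRELA 3898 (15.1%) were called, 2001 higher (7.75%) and 1897 lower (7.34%). Of these, 2570 genes were called under both guides, 65.4% of the sgControl calls and 65.9% of the sgRELA calls, and 2569 of them had the same sign. The test of the difference between guides (the guide by day interaction) called 0 of 25833 genes by edgeR, with 1225 (4.74%) at an unadjusted p under 0.05 and the smallest adjusted p at 0.235. DESeq2 called 5. A p that misses the threshold does not show that the guides act alike.

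Genes with the smallest interaction p were PTCSC1, MYO1E and RELA. RELA lies on chromosome 11, 65653596 to 65663094 (GRCh38, GENCODE v29, minus strand). In sgControl RELA had 30.6, 38.6 and 28.8 CPM on day 5 and 26.1, 24.9 and 22.0 CPM on day 7. In sgRELA it had 312, 258 and 296 CPM and then 124, 133 and 118 CPM. Under both guides the day 7 samples lay below the day 5 samples. The log2 fold changes were -0.43 ± 0.11 and -1.21 ± 0.10, and their difference did not pass (adjusted p 0.235 by edgeR). Log2 fold changes in sgControl and sgRELA were -8.73 and -8.59 for HSPA6 and, in the same order, SLC7A11 had -3.18 and -2.83, UHRF1 1.37 and 1.33, and MT-CO1 -0.36 and -0.44.

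**Figure D5:**
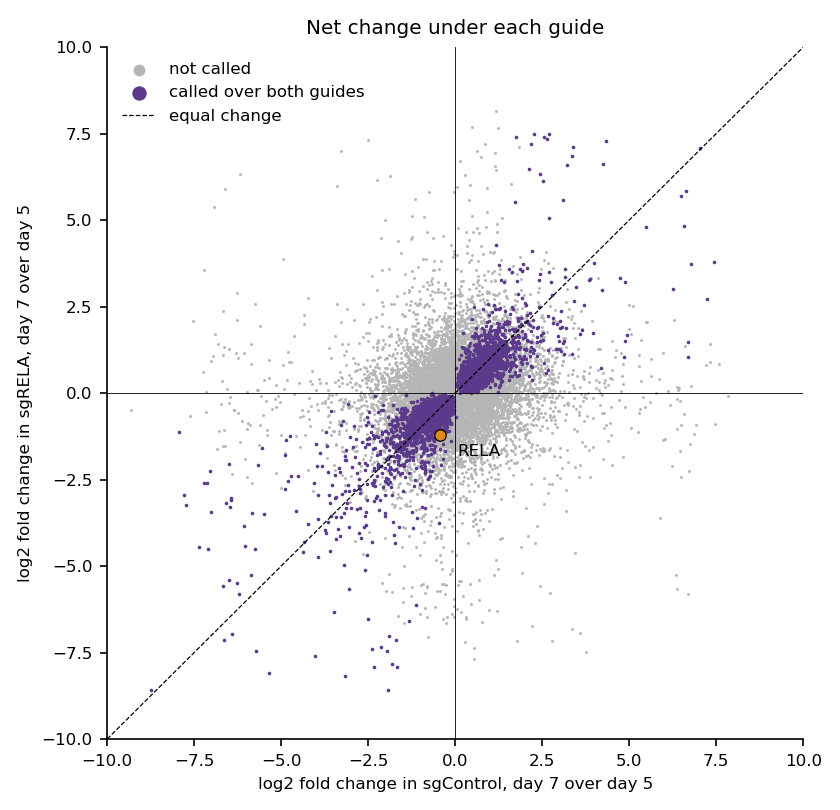
Log2 fold change (day 7 over day 5) of each tested gene in sgRELA (vertical axis) against sgControl (horizontal axis); purple points are the genes called over both guides, grey points were not called, the dashed line marks equal change and RELA is marked in orange. RELA lies below the line, at -0.43 in sgControl and -1.21 in sgRELA.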

How the data were processed

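Total RNA of a Jurkat CRISPR activation line was measured by RamDA-seq with paired-end reads. The deposited values are raw counts per gene and library, not normalized. Reads were handled with cutadapt 1.18 and STAR 2.7.9a on GRCh38, per the submitters' processing notes. The counting tool, annotation, strand setting and treatment of reads with several matches are not given in the sources used here. Most low counts were even, so the mates of a pair may have been counted separately, which would make counting error larger than the counts imply.

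The counts of the 2 libraries of each RNA were added, since they share 1 RNA, which gave 21943451 to 29503934 counts per sample. Genes that passed edgeR's filterByExpr (minimum count 10) were scaled by TMM and tested with edgeR 4.0.16 (R 4.3.3, limma 3.58.1) by the quasi-likelihood F test, with guide and day as terms and Benjamini-Hochberg adjustment over all 25833 genes. Called means an adjusted p under 0.05. Log2 fold changes carry their standard error, and CPM values their SD. Within-guide and interaction contrasts came from a fit with 1 mean for each of 4 groups. Alternatives included DESeq2 1.42.0, other scalings, filters, libraries, a replicate block and left-out samples. The procedure was tested on simulated data. Gene symbols were taken from a reference name table, gene coordinates from GENCODE v29 and promoters from RefSeq (GRCh38.p14).

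The comparison and the gene lists were chosen with earlier results of these data known, so the lists describe and do not support. Named genes are, of the called genes with a symbol, the 8 higher and 8 lower with the smallest p at a log2 fold change of at least 1, and the 6 higher and 6 lower with the largest change at 5 CPM or more in the higher day and no overlap between days. To these come up to 3 called members of each list and direction with the smallest p, RELA, and the 3 genes with the smallest interaction p. All other genes with values in the text were chosen after their values were seen.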

Additional observations from a re-analysis of the deposited data

How the results depend on the processing

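Over 22 alternatives the comparison of both guides called 3340 genes from library replicate 1 alone, against 6437, and stayed within 1.5 times the main count otherwise. Within sgControl, library replicate 1 alone gave 1617 calls and library replicate 2 alone 2496, and within sgRELA they gave 1457 and 2238. With each sample left out in turn the counts were 5897 to 6190 for both guides, 3043 to 3885 for sgControl, 2952 to 4041 for sgRELA and 0 to 1 for the interaction. The interaction gave 5 calls with DESeq2 and 8 without a filter on low counts; the cause was not tested. Genes higher on day 7 with every day 6 sample lowest numbered 147 from library replicate 1 alone, an alternative chosen after seeing the data. The share of higher calls was 45.9% to 53.7%. Over all lists, marker lists included, the median changed sign under an alternative 19 times, in 9 lists. Of 3696 alternative values for 168 named genes, 3624 kept their direction and their side of the threshold, 72 lost the call and 0 reversed. SUPV3L1 and H2AC15 lost it in 12 alternatives each, H4C16 in 10, PSMB10 in 8, PSMB8 in 5 and IRF7 in 3. EGR2 and FAU lost it in 2. CDT1, IMPDH2, SAT1, TNFAIP3, NEAT1, TOMM20, CD69, BID, BCL2L13, BECN1, COX7C and EPB41L4A-AS1 lost it from library replicate 1 alone, and NOB1, SREBF2, ATP5MC2, ATG7 and LINC00954 from library replicate 2 alone. The labels do not say that a replicate number marks the same transduction on each day. Same-numbered samples of days 5 and 7 deviated together with a correlation of -0.0163 to 0.00307 over 15504 genes, so the numbers were not taken to pair them. With the number as a replicate block the counts were 6328 for both guides, 3799 for sgControl, 3709 for sgRELA and 0 for the interaction.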
